A study of Mus musculus with 3 samples.

Results

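The 4 Hox gene clusters were examined in 2 deposited peak lists from cultured mouse precursor B-cell leukaemia cells, 1 for H3K27ac (histone H3 acetylated at lysine 27) and 1 for H3K4me3 (histone H3 trimethylated at lysine 4). Members were all peaks that overlapped, by at least 1 bp, a window of build mm9 around each cluster: chr6:52100000-52230000 for Hoxa, chr11:96040000-96250000 for Hoxb, chr15:102740000-102890000 for Hoxc and chr2:74480000-74620000 for Hoxd. The windows were chosen by position and not by any measured value. They held 9 of the 29468 H3K27ac peaks and 19 of the 18142 H3K4me3 peaks, 28 of 47610 peaks in all.

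The cells were mouse acute B-cell lymphoblastic leukemia cells driven by Bcr-Abl, a constitutively active tyrosine kinase fusion, and were grown in culture with no stimulation or treatment. Chromatin from the same kind of culture was immunoprecipitated with an antibody to H3K27ac, with an antibody to H3K4me3 or with control IgG, and sequenced (ChIP-seq), with 1 library each. The labels give no strain, age or sex of the source mice, and do not say whether the culture is 1 clone. Since each mark has 1 library, values carry no replicate error and no test between samples was made. Peaks were not assigned to genes, because no annotation of mm9 was used here, so the labelled cell type was not checked against marker genes.

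Hox genes encode homeodomain transcription factors that set position along the body axis, and in each cluster they lie in the order of their paralogue groups, with group 1 at the 3′ end and group 13 at the 5′ end. Trithorax-type complexes such as Mll (Kmt2a), which methylate H3K4, keep Hox genes active, and Polycomb complexes, which methylate H3K27, keep them silent. In blood, Hoxa and Hoxb genes are best known from stem and progenitor cells and from leukaemias with Mll fusions. H3K4me3 marks promoters, mostly at CG-rich sequence, whether the gene is active or held ready, while H3K27ac marks active promoters and enhancers. Methylation of H3K27 was not measured here.

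Gene names and gene order were taken from RefSeq's GRCm38.p6 table, since the positions of genes in mm9 were not used. The table lists 39 protein-coding Hox genes: 11 in Hoxa (between Skap2 and Evx1), 10 in Hoxb (Hoxb13 to Hoxb1, between Ttll6 and Skap1), 9 in Hoxc (Hoxc13 to Hoxc4, between Calcoco1 and Smug1) and 9 in Hoxd (Hoxd13 to Hoxd1, between Evx2 and Mtx2). Along the chromosome, Hoxa runs from its lowest to its highest paralogue, and the other clusters run from group 13 down. Distances below are therefore counted from the window edge on the side of the lowest paralogue group (group 4 in Hoxc, group 1 in the others).

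The clusters also hold 6 microRNA genes, and the 5p products of 5 of them share a seed with a gene in another cluster. The mature 5p sequences are shown, from RefSeq's GRCm38.p6 records, with the seed (bases 2 to 8) in capitals.
mmu-miR-196b-5p, Hoxa: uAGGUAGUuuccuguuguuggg
mmu-miR-196a-5p, Hoxb and Hoxc: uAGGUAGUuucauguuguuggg
mmu-miR-10a-5p, Hoxb: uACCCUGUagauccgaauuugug
mmu-miR-10b-5p, Hoxd: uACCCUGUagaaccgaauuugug
mmu-miR-615-5p, Hoxc: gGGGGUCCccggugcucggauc
The seed AGGUAGU is common to miR-196a, encoded in Hoxb (Mir196a-1) and in Hoxc (Mir196a-2), and to miR-196b, encoded in Hoxa. The miR-196 family is known for directing cleavage of Hoxb8 mRNA. The seed ACCCUGU is common to miR-10a in Hoxb and miR-10b in Hoxd. The seed of miR-615-5p was in none of the others, and the 3p products of these genes share no seed with each other.

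Promoters of the outermost Hox genes are shown because CG-rich promoters are the usual seat of H3K4me3, and because these genes are the ends of each cluster in the gene order. They are the 250 bases before the start of transcription on the gene's own strand (minus for Hoxa13, plus for the others), from RefSeq's GRCm38.p6 table, with each CG in capitals. No peak was placed on them.
Hoxa13: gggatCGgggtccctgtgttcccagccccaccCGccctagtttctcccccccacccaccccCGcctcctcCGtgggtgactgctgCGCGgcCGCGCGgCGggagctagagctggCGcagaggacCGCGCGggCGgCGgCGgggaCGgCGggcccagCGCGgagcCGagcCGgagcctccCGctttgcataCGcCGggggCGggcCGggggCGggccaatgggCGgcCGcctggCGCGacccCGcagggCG
Hoxb1: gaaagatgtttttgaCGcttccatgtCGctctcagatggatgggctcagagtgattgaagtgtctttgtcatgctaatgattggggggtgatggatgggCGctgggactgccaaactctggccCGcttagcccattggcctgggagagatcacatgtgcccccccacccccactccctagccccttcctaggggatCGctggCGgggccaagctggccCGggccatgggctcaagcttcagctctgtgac
Hoxc4: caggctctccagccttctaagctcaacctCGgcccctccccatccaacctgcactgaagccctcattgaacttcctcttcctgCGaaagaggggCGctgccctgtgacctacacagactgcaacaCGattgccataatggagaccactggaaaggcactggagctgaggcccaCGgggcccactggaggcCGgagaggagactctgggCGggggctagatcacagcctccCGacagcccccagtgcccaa
Hoxd1: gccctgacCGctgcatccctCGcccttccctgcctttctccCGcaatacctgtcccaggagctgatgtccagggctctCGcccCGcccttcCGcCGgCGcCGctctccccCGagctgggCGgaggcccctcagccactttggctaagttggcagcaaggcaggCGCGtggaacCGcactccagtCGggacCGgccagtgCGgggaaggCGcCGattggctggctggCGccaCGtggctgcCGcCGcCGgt
Hoxd13: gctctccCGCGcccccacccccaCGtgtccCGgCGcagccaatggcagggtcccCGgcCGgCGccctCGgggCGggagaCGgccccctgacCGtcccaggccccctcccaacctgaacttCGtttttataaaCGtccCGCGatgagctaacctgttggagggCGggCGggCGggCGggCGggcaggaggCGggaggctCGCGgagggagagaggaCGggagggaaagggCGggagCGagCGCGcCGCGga
These 250 bases held 35 CG dinucleotides in Hoxa13, 31 in Hoxd13, 24 in Hoxd1, 8 in Hoxc4 and 7 in Hoxb1. At least 1 CG was present in 92.1% of the 32851 promoters in the table, whose median was 6 per 250 bases (quartiles 2 and 16). The Hoxa promoters (10, from 9 of 11 genes) had a median of 15.5 and the Hoxd promoters (10, from 9 of 9 genes) a median of 12.5, counts that 25.4 and 31.5% of all promoters reached. The counts ranged from 3 to 35 in Hoxa and from 2 to 31 in Hoxd, so both clusters hold CG-poor as well as CG-rich promoters, and the Hoxa13 and Hoxd13 promoters printed here have the highest count of their cluster. Over Hoxb and Hoxc the comparison is void, since 3 of 10 and 1 of 9 of their genes were matched, under the 80% that was required.

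The clusters differed most in H3K27ac. Hoxb held 6 H3K27ac peaks, Hoxc 2, Hoxd 1 and Hoxa none, and they covered 23.5 kb in Hoxb, 2.35 kb in Hoxc, 1.84 kb in Hoxd and 0 kb in Hoxa. H3K4me3 was found in all 4 clusters, with 7 peaks in Hoxb, 6 in Hoxc, 3 in Hoxa and 3 in Hoxd. Hoxb was thus the cluster with broad, high-scoring peaks of both marks, and the other 3 carried mostly narrow H3K4me3 peaks. Consecutive tiles of each window's width along the genome give the background. Tiles of 130 kb held H3K27ac in 44.2% and H3K4me3 in 40.2% of cases, tiles of 140 kb in 45.7 and 41.6%, tiles of 150 kb in 46.7 and 42.8%, and tiles of 210 kb in 53.1 and 49.7%. The absence of H3K27ac in a window of the length of Hoxa is therefore common by itself.

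Scaled for window length, the order of the clusters depended on the mark. H3K4me3 peaks numbered 4.0 per 100 kb in Hoxc, 3.33 in Hoxb, 2.31 in Hoxa and 2.14 in Hoxd, against 0.705 over the genome. H3K27ac peaks numbered 2.86 per 100 kb in Hoxb, 1.33 in Hoxc, 0.714 in Hoxd and 0 in Hoxa, against 1.15 over the genome. Every cluster was thus denser in H3K4me3 peaks than the genome's mean, and Hoxb was so in H3K27ac. That mean takes in many empty stretches, as the median tile of each width held 0 H3K4me3 peaks. Among tiles of the window's width, 13.3% held at least as many H3K4me3 peaks as Hoxa. The share was 4.43% for Hoxb, 3.28% for Hoxc and 14.5% for Hoxd. At least as many H3K27ac peaks as in Hoxb were held by 16.4% of tiles, as in Hoxc by 33.5% and as in Hoxd by 45.7%. The position of Hoxc above the genome in H3K27ac rested on 1 low-scoring peak. With scores of at least 100 Hoxc held 0.667 H3K27ac peaks per 100 kb against 0.943 over the genome, and with the H3K27ac list cut to the length of the H3K4me3 list 0.667 against 0.706.

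**Figure D1:**
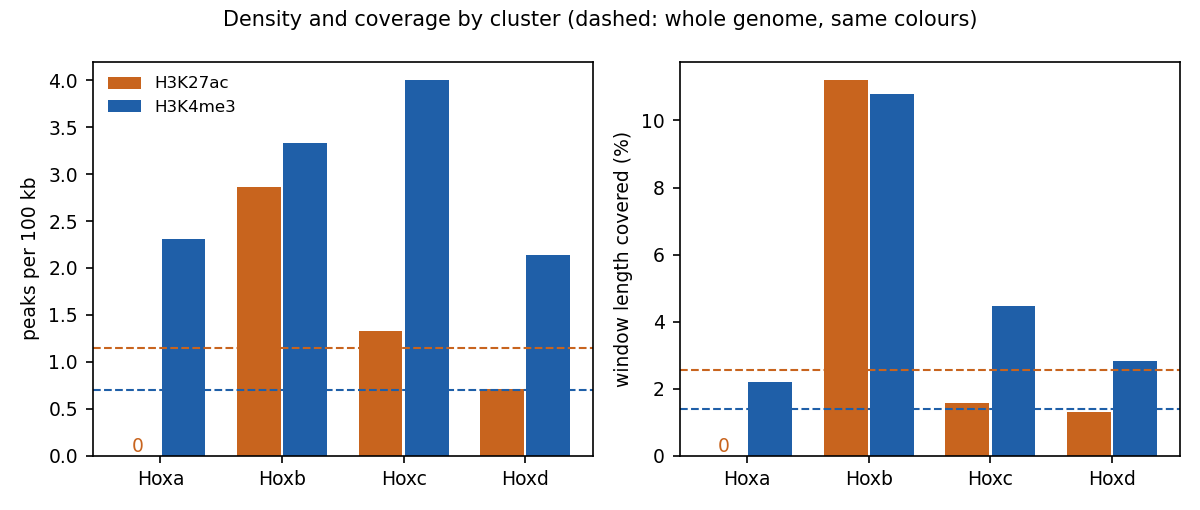
Peaks per 100 kb (left) and percentage of the window length covered by peaks (right) for H3K27ac (orange) and H3K4me3 (blue) in the 4 Hox windows; dashed lines give the same over the whole genome. Hoxb has the tallest bars for length, 11.2 and 10.8%, and Hoxa has no H3K27ac.

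By length covered, Hoxb stood apart for both marks. H3K27ac covered 11.2% of the Hoxb window, 1.57% of Hoxc and 1.31% of Hoxd, against 2.56% of the genome. H3K4me3 covered 10.8% of Hoxb, 4.46% of Hoxc, 2.83% of Hoxd and 2.2% of Hoxa, against 1.39% of the genome. Hoxc, with 6 H3K4me3 peaks against 7 in Hoxb, thus had far less length under the mark, because its peaks were narrower. At least as much H3K4me3 as in Hoxb was found in 0.893% of 210 kb tiles, and at least as much H3K27ac in 5.45%. The genome's 2.56% for H3K27ac lies above the typical tile, as the median tile of 140 or 150 kb held 0 H3K27ac peaks. At least as much H3K27ac as in Hoxc was found in 35.0% of 150 kb tiles, and as in Hoxd in 37.0% of 140 kb tiles. Hoxb lies on chromosome 11, which held 1.82 H3K27ac and 1.2 H3K4me3 peaks per 100 kb, above the genome's values, and the Hoxb window exceeded both.

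Within Hoxb the peaks formed 3 groups. The farthest from the group 1 side, 182 to 190 kb from that edge, was the widest H3K27ac peak of the 4 clusters, 7920 bp at chr11:96060050-96067969, wider than 98.1% of all H3K27ac peaks. It lay over a pair of H3K4me3 peaks, 2459 bp at chr11:96059828-96062286 and 4319 bp at chr11:96063550-96067868, which are separated by 1.26 kb that carried acetylation only. All 3 scored 3100, a value at which many of the authors' peak scores are tied and which is called the ceiling here. The score is the authors' value for each peak, its definition is not stated, and it was compared only within a list. In the gene order this region lies toward Hoxb13, and no gene was assigned to it.

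The middle group was nearly continuous over 14.1 kb at chr11:96143445-96157522, between 92.5 and 107 kb from the group 1 side. It held 3 H3K27ac peaks (4635, 2025 and 4949 bp) and 3 H3K4me3 peaks (5693, 1650 and 4600 bp), which covered 82.5 and 84.8% of the stretch. The outer peaks of both marks scored 3100. The peaks between them were lower, 699.9 for H3K27ac and 346.27 for H3K4me3. The 5693 bp peak, at chr11:96143445-96149137, was the widest H3K4me3 peak of the 4 clusters, wider than 98.8% of its list. It began 1153 bp before the H3K27ac peak it overlapped, while their other ends lay 95 bp apart, so H3K4me3 reached farther than acetylation on the group 13 side.

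The third group, nearest to the group 1 side, comprised 2 separate sites where peaks of both marks nearly coincided. At 76.4 to 78.2 kb from the edge, an H3K27ac peak of 1811 bp (chr11:96171756-96173566, score 1358.71) met an H3K4me3 peak of 1636 bp (chr11:96171974-96173609, score 1276.72). At 68.7 to 71.0 kb, an H3K27ac peak of 2188 bp (chr11:96179106-96181293) lay wholly within an H3K4me3 peak of 2272 bp (chr11:96179045-96181316), both at the ceiling. The remaining 68.7 kb of the window on the group 1 side held neither mark. Between the middle group and the pair toward Hoxb13 lay a further 75.6 kb without H3K4me3 and 76.6 kb without H3K27ac.

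**Figure D2:**
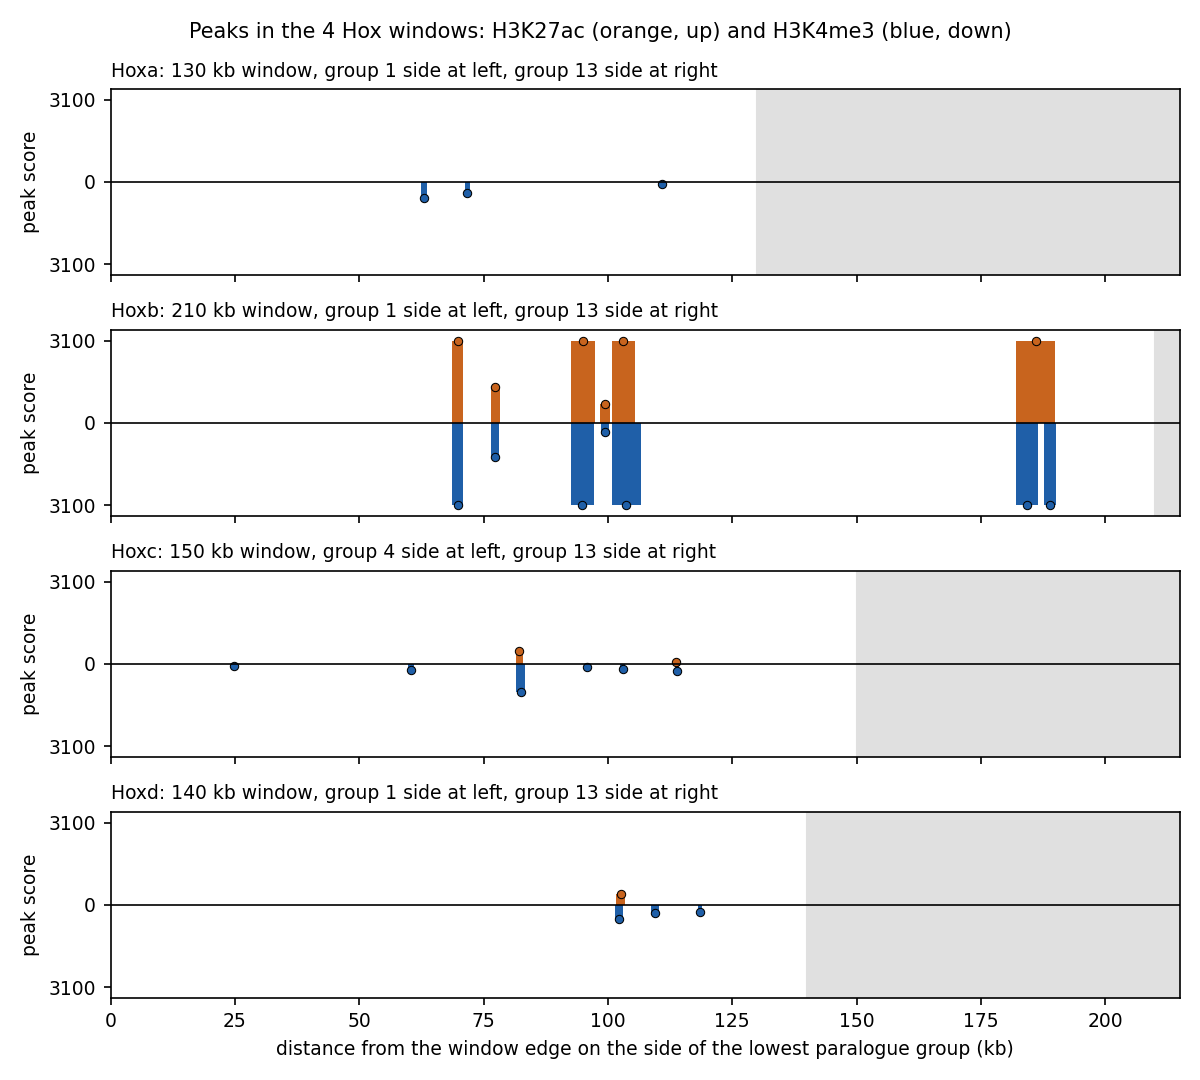
Peaks of H3K27ac (orange, upward) and H3K4me3 (blue, downward) in each Hox window; the x axis is the distance in kb from the window edge on the side of the lowest paralogue group, bar width is the peak's width, bar height is the authors' score (linear), and dots mark bar ends. Grey lies beyond the window. Hoxb carries mirrored peaks of both marks, 4 H3K27ac and 5 H3K4me3 at 3100, and the other clusters carry low H3K4me3 peaks with 3 low H3K27ac peaks in all.

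Hoxc carried the largest number of H3K4me3 peaks after Hoxb, and none reached the ceiling. From the group 13 side they lay at chr15:102775659-102776597 (score 267.38), chr15:102786558-102787554 (197.55), chr15:102793911-102794656 (101.09), chr15:102806589-102808520 (1057.92), chr15:102829048-102830251 (217.37) and chr15:102864787-102865661 (87.23). They were 746 to 1932 bp wide, and 40.4% of the H3K4me3 list scored lower than the highest of them. The peaks were spread over the cluster, with gaps of 6.36 to 34.5 kb, and 3 of the 6 lay between 81.5 and 103 kb from the group 4 side.

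Only 2 of the 6 Hoxc sites carried H3K27ac. The highest-scoring H3K4me3 peak enclosed an H3K27ac peak of 1357 bp (chr15:102807115-102808471, score 484.64), and the peak nearest to the group 13 side overlapped one of 994 bp (chr15:102775765-102776758) with a score of 77.72. The second of these is near the lowest score in the list, 50.01, and 12.4% of H3K27ac peaks scored lower. The 4 H3K4me3 peaks without acetylation were 9.8 to 56.3 kb from the nearest H3K27ac peak. As many H3K4me3 peaks without H3K27ac were found in 9 of 17089 tiles of 150 kb, or in 12 of 17080 when the tiles were shifted by 50% of their width. Most tiles hold no H3K4me3, so these numbers also reflect how many H3K4me3 peaks Hoxc has. Of the 561 tiles with 6 or more H3K4me3 peaks, 4 (0.713%) held no more than 2 H3K27ac peaks. All these counts include any tile within Hoxc itself.

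In Hoxd all peaks lay toward group 13. The 3 H3K4me3 peaks were at chr2:74501042-74501822 (781 bp, score 254.94), chr2:74509687-74511263 (1577 bp, score 302.05) and chr2:74516897-74518502 (1606 bp, score 549.41). The last of them, with the highest score, overlapped the single H3K27ac peak of the cluster, 1839 bp at chr2:74516520-74518358 with a score of 415.25. These sites lay 101 to 119 kb from the group 1 side. The rest of the window on that side, 101 kb, held neither mark. The other 2 H3K4me3 peaks lay 5.26 and 14.7 kb from that H3K27ac peak. Among 18310 tiles of 140 kb, 335 (1.83%) held 2 or more H3K4me3 peaks without H3K27ac. Of the 2653 tiles with 3 or more H3K4me3 peaks, 59 (2.22%) held no more than 1 H3K27ac peak. Both counts include any tile within Hoxd itself.

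Hoxa carried H3K4me3 without any H3K27ac. The peaks were at chr6:52162343-52163538 (1196 bp, score 610.92), chr6:52171159-52172318 (1160 bp, score 429.97) and chr6:52210640-52211137 (498 bp, score 59.97). The first 2 lay near the middle of the window, 62.3 and 71.2 kb from the group 1 side. The third lay 111 kb from it and is among the lowest-scoring of its list, where 3.56% of peaks scored lower. The nearest H3K27ac peaks to these 3 sites were 132, 141 and 180 kb away, all of them outside the window.

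The acetylation-free stretch around Hoxa extended beyond the cluster. No H3K27ac peak was called over 396 kb, chr6:52030436-52426654, between 2 neighbouring peaks. A window without a peak has to lie in a stretch at least as long as itself, and of the 3545 stretches of at least 130 kb in the list, 1343 were longer than this one. It held 4 H3K4me3 peaks, the 3 of the cluster and 1 beyond it on the group 13 side (chr6:52255710-52256640, 931 bp, score 244.28), 25.7 kb past the window. Of 19722 tiles of 130 kb, 2616 held 3 or more H3K4me3 peaks, and 10 of those (0.382%) held no H3K27ac. When the tiles were shifted by 50% of their width this became 4 of 2609, so the number rests on where the tiles begin. When only H3K4me3 peaks without H3K27ac were counted, 41 of the 19722 tiles (0.208%) held 3 or more. With shifted tiles it was 47 of 19708. All these counts include any tile within Hoxa itself.

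All H3K27ac peaks of the 4 clusters overlapped H3K4me3, 9 of 9 (lower bound of the exact 95% binomial interval 66.4%), where 52.3% of the whole list did. Among H3K4me3 peaks the relation was the reverse, with 10 of 19 (52.6%, interval 28.9 to 75.6%) on H3K27ac and 86.1% in the whole list. The lower share came from outside Hoxb. In Hoxb 7 of 7 H3K4me3 peaks overlapped H3K27ac (lower bound 59.0%), and in Hoxa, Hoxc and Hoxd together 3 of 12 did (interval 5.49 to 57.2%). By cluster the counts were 0 of 3 in Hoxa, 2 of 6 in Hoxc and 1 of 3 in Hoxd. The intervals cover counting error alone, as if peaks were independent, which neighbouring peaks of 1 cluster are not.

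Low-scoring peaks overlap the other mark less often across the genome, so the shares were also set against peaks of like score. Among H3K4me3 peaks scoring 100 to under 1000, 3 of 10 in the Hox windows overlapped H3K27ac, and 72.3% of the 5075 in the list did. Between 50 and 100 it was 0 of 2, against 57.6%. Between 1000 and 3100 it was 2 of 2, against 89.6%, and at or above 3100 it was 5 of 5, against 99.8%. The difference from the list thus lay in peaks scoring under 1000, of which 1 of 12 belonged to Hoxb. For H3K27ac the counts on H3K4me3 were 1 of 1, 3 of 3, 1 of 1 and 4 of 4 from the lowest to the highest class, where the list gave 15.4, 33.3, 73.6 and 90.8%.

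**Figure D3:**
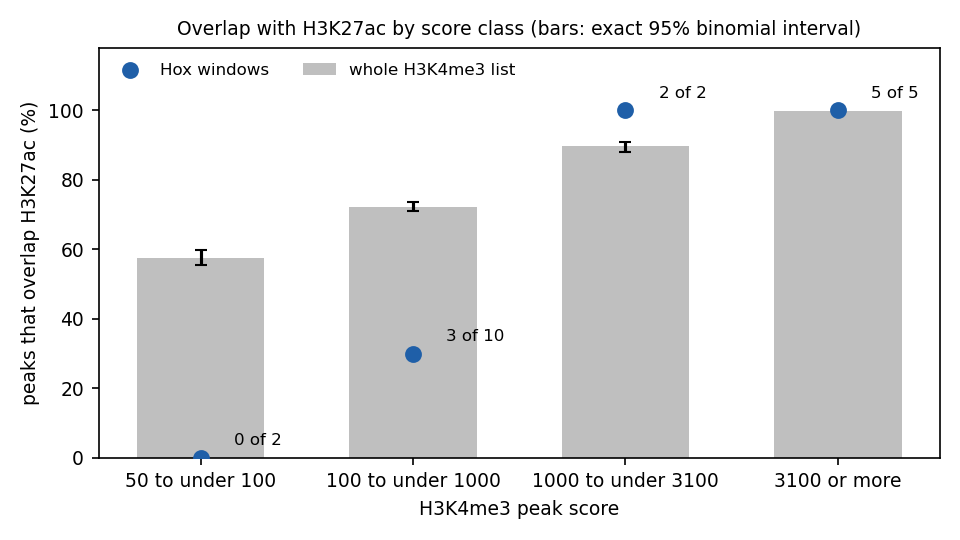
Percentage of H3K4me3 peaks that overlap H3K27ac by score class, in the whole list (grey bars with exact 95% binomial intervals) and in the 4 Hox windows (blue points, labelled with counts). The Hox points lie below the bars at scores under 1000 (0 of 2 and 3 of 10) and at 100% above.

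The highest scores and the widest peaks lay in Hoxb, although its range overlapped that of the other clusters. At or above the ceiling were 4 of 9 H3K27ac peaks (24.1% in the whole list) and 5 of 19 H3K4me3 peaks (50.3% in the whole list), and all 9 lay in Hoxb. The 12 H3K4me3 peaks of Hoxa, Hoxc and Hoxd scored 59.97 to 1057.92 and were 498 to 1932 bp wide, with a median of 1078.5 bp, where the list's median was 1807 bp. In the list 54.0% of H3K4me3 peaks were no wider than 1932 bp. The 7 Hoxb peaks were 1636 to 5693 bp wide with a median of 2459 bp. Its lowest H3K4me3 score, 346.27, was below those of 2 Hoxa peaks, 1 Hoxc peak and 1 Hoxd peak, and its peaks of 1636 and 1650 bp were narrower than the widest in Hoxc. For H3K27ac the narrowest Hoxb peak, 1811 bp, was narrower than the Hoxd peak of 1839 bp, and the lowest Hoxb score, 699.9, was above the 3 scores outside Hoxb.

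**Figure D4:**
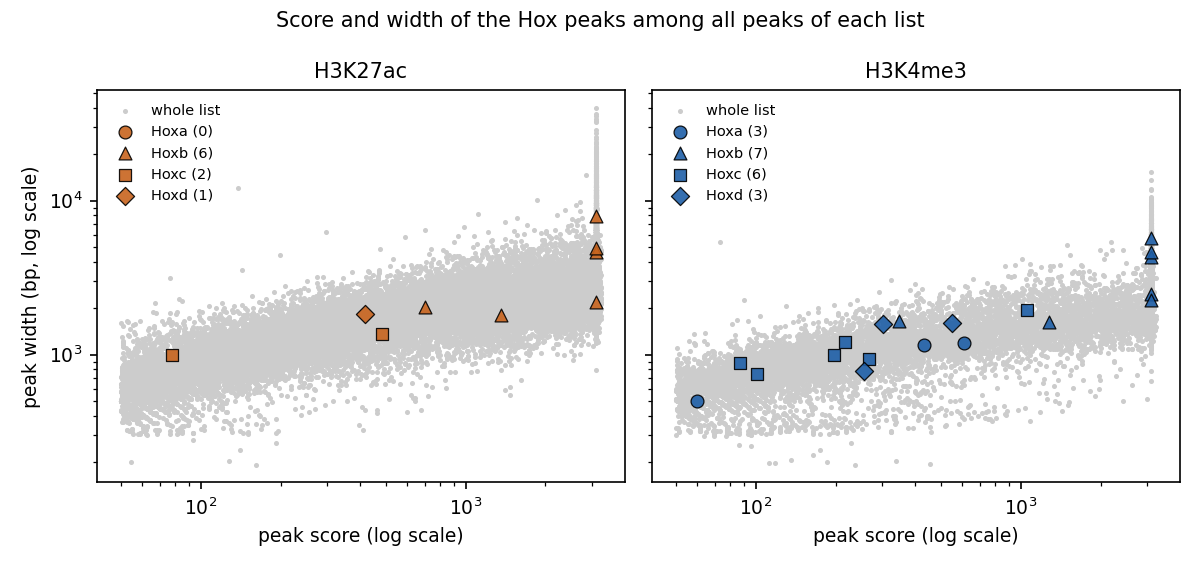
Width (bp, log scale) against score (log scale) for H3K27ac (left) and H3K4me3 (right); grey dots are all peaks of the list and symbols are the peaks of each Hox window, with their number in the legend. Hoxb triangles reach 3100 in both panels, and the symbols of the other clusters stay at or below 484.64 for H3K27ac and 1057.92 for H3K4me3.

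The 9 H3K4me3 peaks without H3K27ac, all in Hoxa, Hoxc or Hoxd, can be set beside the same class of the whole list. Their median width was 997 bp and their median score 217.37, against 763 bp and 136.71 over the 2525 H3K4me3 peaks without H3K27ac. Their median distance to the nearest H3K27ac peak was 20.6 kb (range 5.26 to 180 kb), against 29.9 kb over that class. The spread between clusters was wide, from 5.26 kb at the nearest in Hoxd to 132 kb at the nearest in Hoxa.

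Where the marks met, they covered much of the same length. There were 10 meetings of an H3K27ac with an H3K4me3 peak, 7 in Hoxb, 2 in Hoxc and 1 in Hoxd. They shared 21.1 kb in Hoxb, which is 89.8% of its H3K27ac and 93.4% of its H3K4me3 length. In Hoxc they shared 2.19 kb, 93.2% of all H3K27ac but 32.7% of all H3K4me3 length. In Hoxd they shared 1.46 kb, 79.5 and 36.9%. These shares count the H3K4me3 peaks that met no H3K27ac. Of the H3K4me3 peaks that did meet it, 88.7 and 70.2% of the length was shared in Hoxc and 91.0% in Hoxd. Over the 4 clusters 89.4% of all H3K27ac and 68.6% of all H3K4me3 length was shared, where the whole lists gave 45.7 and 84.3%. Acetylation in these clusters thus lay mostly inside H3K4me3.

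The surroundings of the clusters differed. In the 100 kb next to Hoxc neither side held a peak of either mark, and the nearest H3K4me3 peaks lay 162 kb beyond its group 13 side and 103 kb beyond its group 4 side. Next to Hoxb the 100 kb on the group 13 side held a single H3K27ac peak (361 bp, score 68.52), and on the group 1 side 3 H3K27ac peaks (scores 50.31 to 396.17, 3.57% of the length) and 1 H3K4me3 peak (score 51.14). The H3K27ac density on that side, 3.0 per 100 kb, was near the 2.86 of the Hoxb window itself, but all 3 scored below 699.9, the lowest H3K27ac score in Hoxb. Next to Hoxd, H3K4me3 peaks at the ceiling stood on either side, 62.3 kb beyond the group 13 side (chr2:74415658-74417744) and 43.4 kb beyond the group 1 side (chr2:74663362-74665232). Both overlapped H3K27ac. The nearest H3K27ac peaks to the Hoxa window were 69.6 kb away on the group 1 side (chr6:52028827-52030435, score 279.83) and 197 kb away on the group 13 side (chr6:52426655-52428758, score 734.22).

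**Figure D5:**
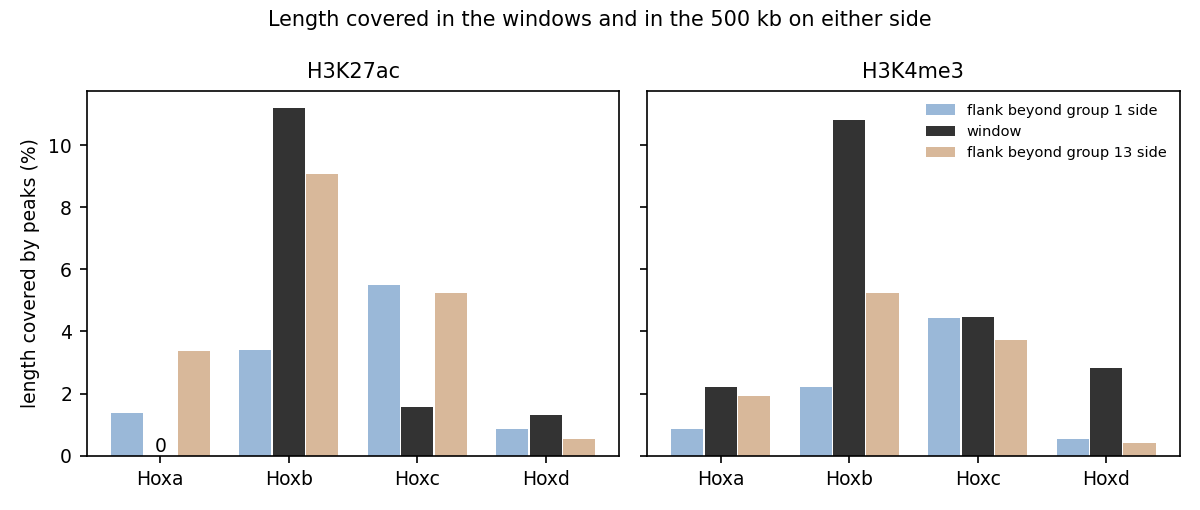
Percentage of length covered by H3K27ac (left) and H3K4me3 (right) peaks in each Hox window (dark) and in the 500 kb beyond its low-paralogue side (blue) and its group 13 side (brown). Hoxb is covered more than its flanks for both marks (11.2 and 10.8%), and for H3K27ac Hoxa (0) and Hoxc (1.57%) are covered less than both of theirs.

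Over 500 kb on each side, H3K27ac covered 9.08% beyond the group 13 side of Hoxb and 3.4% beyond its group 1 side, both below the 11.2% of the cluster itself. By number the group 13 side was denser than the Hoxb window, with 3.6 against 2.86 H3K27ac peaks per 100 kb. That flank held 18 H3K27ac peaks, 8 of them at the ceiling. The group 1 side held 1.8 per 100 kb. By length Hoxc showed the opposite of Hoxb over these 500 kb, with 5.23 and 5.5% in the flanks and 1.57% in the window. Around Hoxa H3K27ac covered 3.37% and 1.38%. Hoxd lay in a region poor in both marks, with 0.531 and 0.863% under H3K27ac and 0.417 and 0.541% under H3K4me3. Both marks covered more of the Hoxd window (1.31% for H3K27ac and 2.83% for H3K4me3) than of these flanks. For H3K4me3 in Hoxc the picture depended on the measure and on the flank. By length the window (4.46%) was close to the 500 kb beside it (3.72 and 4.42%), by number it held 4.0 peaks per 100 kb against 2.0 on each side, and the nearest 100 kb on each side held none.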

How the data were processed

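The data are 2 peak lists of mouse build mm9, 1 per mark, which the authors called with MACS, per the submitters' processing notes. The MACS version, aligner and read filters were not given in the sources used here. Nor is depth known for any peak. Each peak has a score deposited by the authors, which no header or label defines. Its lowest value is 50.01 in both lists, and the names of the lists carry a p-value threshold of 1e-5. Scores were used only within a list. Exactly 3100 was given to 6863 H3K27ac and 9042 H3K4me3 peaks, and 243 and 75 exceed it, so ranks above it mean little. A deeper library yields more weak peaks, which limits comparisons between the lists. No peak list of the IgG library was analysed here.

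Positions are counted from 1. Peaks overlapped when they shared at least 1 bp, and tiles ran from the first to the last peak of each placed chromosome. Every member is given, under the rule that all are named if they are 60 or fewer. Genes of the Hox pathway outside the clusters (cofactors, Mll complex, Polycomb) were not analysed here, since they need an mm9 annotation. RefSeq promoters matched 22 of 39 Hox genes. Members and lists were chosen with earlier results of these data known. Overlaps and intervals were computed with SciPy 1.17.1 and pandas 2.3.3 (NumPy 2.4.6, Python 3.11.15). The overlap step made 0 wrong calls on 2000 simulated peaks. Alternatives covered score, window extent, joined peaks, list length and the overlap rules.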

Additional observations from a re-analysis of the deposited data

How the results depend on the processing

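Several alternatives could not change a value, and they are counted here too. No peak crossed a window edge or lay within 10 kb inside or 20 kb outside one. Moving edges by those distances, or requiring 50% of a peak inside, was thus without effect. H3K4me3 peaks off H3K27ac lay at least 5.26 kb from it, beyond the 1000 bp that an alternative allowed. Cutting the H3K27ac list left H3K4me3 counts untouched. Share intervals were wide, as 0.84 to 90.6% in Hoxd. A value was held to stay if within 1.5 times the reported count or length, or within the interval of the reported share. Of 156 alternative values for 32 results, 150 stayed and 6 did not. The weak Hoxc peak of H3K27ac (score 77.72) decided 4 of them: with scores of at least 100, or with the H3K27ac list cut to the length of the H3K4me3 list, Hoxc held 1 H3K27ac peak and 1357 bp in place of 2 peaks and 2351 bp. With scores of at least 100, Hoxc had 1 H3K4me3 peak in the 50% of its window on the group 4 side in place of 2. The number of 130 kb tiles with 3 or more H3K4me3 peaks and no H3K27ac was 10, and 4 with shifted tiles, an alternative chosen after seeing the data. The share of H3K4me3 peaks on H3K27ac over the 4 clusters ranged from 47.4 to 52.9%. For Hoxc alone (33.3%, interval 4.33 to 77.7%) raising the score minimum to 100 gave 20%, and cutting the list gave 16.7%. No setting tried could add an H3K27ac peak to Hoxa, whose nearest lies 69.6 kb away. No paired analysis was possible because each mark has 1 library. Depth is unknown, so a peak that is absent from a list may lie below its threshold.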
